A study of Mus musculus with 6 samples.

Results

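The neurotrophin receptor gene Ntrk2 was followed in bulk RNA sequencing of mouse liver together with 4 related genes. These were the related kinase receptor gene Ntrk3, the shared low-affinity receptor gene Ngfr, the sorting receptor gene Sort1 and the ligand gene Bdnf. They were taken by symbol from a table of 16603 genes, and all 5 were present and passed the filter on low counts that left 12612 genes for testing. The genes were chosen by their counts in these same 6 libraries, Ntrk2 for its difference between the groups and the others as its ligand and related receptors, so their own levels and differences are given as a description with no test. The libraries were 3 labelled Mdr2-/- and 3 labelled WT, all from liver. Mdr2 (gene symbol Abcb4) carries phosphatidylcholine across the hepatocyte membrane into bile, and its loss in mice leads to bile duct damage and scarring. The series title and design place the comparison in a study of hepatic progenitor cells and hedgehog signalling. Age, sex, strain, the allele and any pooling of animals are not stated in the labels. Whether each replicate was its own animal is not stated either, and the p-values then rest on a spread between samples that may be technical.

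Neurotrophins are secreted growth factors best known for keeping neurons alive and shaping their connections. They act through the Trk receptor tyrosine kinases, of which TrkB, the product of Ntrk2, binds BDNF and neurotrophin-4, and TrkC, the product of Ntrk3, binds neurotrophin-3. The p75 receptor, the product of Ngfr, binds neurotrophins in general, and with sortilin, the product of Sort1, it binds the uncleaved proneurotrophins. In liver, p75 is known as a protein of hepatic stellate cells, and sortilin is also known there for the trafficking of lipoproteins.

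Ntrk2 makes more than a single receptor form, which matters because the deposited values are 1 count per gene. In the GENCODE M21 annotation of GRCm38, Ntrk2 had 7 protein-coding transcripts. Of these, 2 encoded the full receptor of 821 residues with its kinase, and 5 ended early. The early-ending transcripts Ntrk2-204 and Ntrk2-202 shared 1394 coding bases with the full form, then ran for 37 bases of their own, stop codon included, and encoded 476 residues. That form is known as TrkB.T1 and has no kinase domain. The 2 coding ends are printed 5′ to 3′ on the plus strand of chromosome 13, with 30 shared bases in lower case and the 37 bases from the point where they part in capitals.
Ntrk2-204, truncated form: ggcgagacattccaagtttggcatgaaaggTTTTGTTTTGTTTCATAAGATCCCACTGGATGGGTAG
Ntrk2-207, full form: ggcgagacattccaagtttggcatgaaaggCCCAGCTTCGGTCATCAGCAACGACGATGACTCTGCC
A count per gene adds reads of all forms, so the Ntrk2 values cannot tell forms with the kinase from forms without it.

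The set of start-site windows used here covered 3 of the 5 genes, with 1 window for Ntrk2, 1 for Ngfr and 7 for Bdnf. It held 0 for Ntrk3 and Sort1. The Ntrk2 window is given because that gene carried the largest difference of the 5. It covers 250 bases before and 50 after an annotated start, chr13:58806319-58806618 on the plus strand of GRCm38.p6, and is written 5′ to 3′ with matches to CANNTG (E-box, N for any base) and GGGCGG (GC box) in capitals.
Ntrk2 window: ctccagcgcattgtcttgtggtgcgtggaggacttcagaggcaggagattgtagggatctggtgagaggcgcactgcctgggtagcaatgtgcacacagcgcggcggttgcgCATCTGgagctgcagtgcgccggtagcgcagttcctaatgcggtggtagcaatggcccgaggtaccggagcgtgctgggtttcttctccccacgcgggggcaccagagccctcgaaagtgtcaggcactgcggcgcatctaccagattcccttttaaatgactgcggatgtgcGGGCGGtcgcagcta
It held 1 E-box match, present in 72.3% of all 32851 windows, and 1 GC box match, present in 35.7%, searched on both strands. The CRE sequence TGACGTCA, found in 1.79% of windows, had 0 matches in these letters. The same held for the AP-1 sequence TGANTCA, found in 7.81% of windows. For the TEAD sequence GGAATG, found in 14.7% of windows, and the TATA sequence TATAAA, found in 13.6%, there were also 0 matches. Its G and C content was 61.3%, against a median of 52.7% over all windows.

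Each library held 17100393 to 18124467 counts. CPM are counts per 1000000 of the TMM-scaled library size, and a floor of 3 counts in a library equals 0.149 to 0.156 CPM in the labelled Mdr2-/- and 0.189 to 0.192 CPM in the labelled WT libraries. Abcb4 had 10071, 10188 and 8347 counts in the labelled Mdr2-/- libraries and 5190, 5776 and 4330 in the labelled WT libraries, so the targeted gene was higher where the label says knockout (adjusted p = 0.00389 by the edgeR quasi-likelihood test, log2 fold change 0.57 with SE 0.12). The allele is not described in the labels, and a count over the whole gene cannot check it. Table columns named with N were read as WT by elimination. Groups are therefore named by their labels, and each direction rests on them. Over all 12612 tested genes, 37.1% passed an adjusted p of 0.05, 20.9% higher and 16.3% lower in the labelled Mdr2-/- libraries, and the median log2 fold change was 0.009. With total-count scaling that median lay 0.29 higher, and all changes are given relative to the TMM scale.

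Ntrk2 was abundant in every labelled Mdr2-/- library and close to absent in every labelled WT library. It had 2041, 1064 and 1458 counts in labelled Mdr2-/- replicates 1, 2 and 3, and 10, 2 and 6 counts in labelled WT replicates 1, 2 and 3. On the CPM scale these were 101, 53.6 and 75.8 CPM in the labelled Mdr2-/- libraries, against 0.636, 0.128 and 0.379 CPM in the labelled WT libraries. The groups lay far apart, and labelled WT replicate 2 was under the floor of 3 counts. The means were 76.9 ± 23.9 and 0.381 ± 0.254 CPM (SD, n = 3 each), and the summed counts gave a ratio of 202 with an exact 95% counting interval of 128 to 341, which covers counting error only. Its log2 fold change of 7.63 was the seventh highest of the tested genes, rank 7, and it ran from 7.22 to 8.19 when any 1 library was left out. In the labelled Mdr2-/- libraries its mean CPM exceeded that of 86.0% of tested genes, and in the labelled WT libraries that of 3.09%. CPM are not scaled by length, so these shares place a long gene higher than a level per length would. The low-count filter asks for 3 libraries at a minimum that equals 10 counts in the median library. Ntrk2, Ntrk3 and Bdnf each met it in all 3 labelled Mdr2-/- libraries and in only 1 labelled WT library, and a filter met in this way favours genes that are high in the labelled Mdr2-/- group. In bulk liver, more cells that carry a transcript and more transcript per cell cannot be told apart.

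Within the labelled Mdr2-/- group, Ntrk2 varied more than most genes of like level. Its highest library held 1.89 times its lowest, and its coefficient of variation was 31.0%. Among the 2751 tested genes within 2-fold of its mean CPM in that group, the median coefficient of variation was 5.93%, and 98.3% of them varied less. Replicate 1 was highest and replicate 2 lowest. Of the other 4 genes, Ntrk3 and Ngfr had larger coefficients of variation in that group, 40.3% and 39.7%. Sort1 and Bdnf had smaller ones, 8.19% and 7.27%. Ntrk3 and Ngfr lay at lower levels than Ntrk2, with mean CPM of 1.32 and 5.48.

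**Figure D1:**
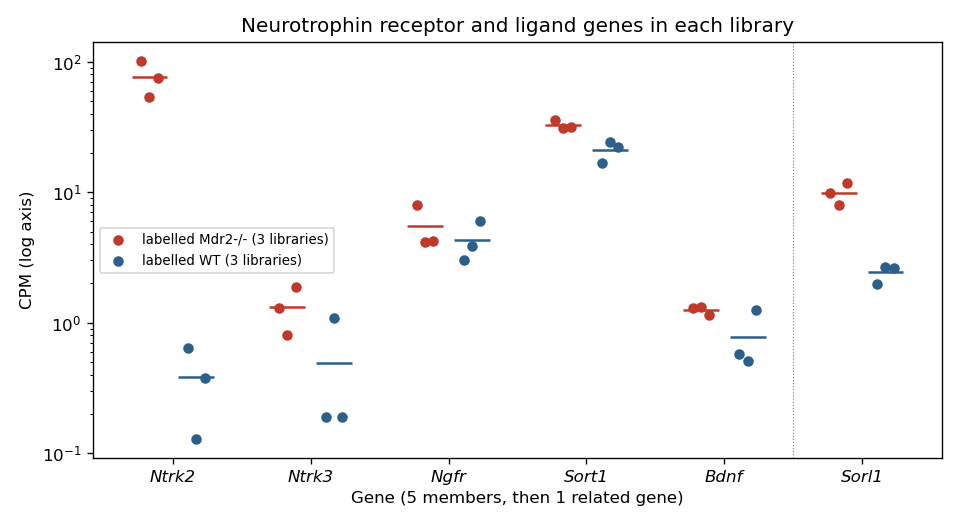
CPM on a log axis for Ntrk2, Ntrk3, Ngfr, Sort1 and Bdnf, then for the related gene Sorl1, in the 3 labelled Mdr2-/- libraries (red, left of each pair) and the 3 labelled WT libraries (blue); points are libraries and bars are means. Ntrk2 lies at 53.6 to 101 CPM against 0.128 to 0.636 CPM, while the groups overlap for Ntrk3, Ngfr and Bdnf.

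The related kinase receptor gene Ntrk3 was scarce in every library. Ntrk3, the TrkC gene, had 26, 16 and 36 counts in the labelled Mdr2-/- libraries and 3, 17 and 3 counts in the labelled WT libraries. Labelled WT replicate 2 stood apart from its group and reached into the labelled Mdr2-/- range, so the groups overlapped. Mean levels were 1.32 ± 0.533 and 0.489 ± 0.517 CPM (SD, n = 3 each), with a log2 fold change of 1.42 that was 2.74 without labelled WT replicate 2.

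Ngfr, the p75 gene, did not separate the groups. It had 161, 83 and 82 counts in the labelled Mdr2-/- libraries, 7.99, 4.18 and 4.26 CPM. In the labelled WT libraries it had 48, 61 and 95 counts, 3.05, 3.90 and 5.99 CPM. Labelled Mdr2-/- replicate 1 was high and the other libraries of both groups lay among each other. The log2 fold change was 0.34 and turned to -0.03 without labelled Mdr2-/- replicate 1.

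Sort1 was, beside Ntrk2, the other gene of the 5 whose groups did not overlap, as was the case in either direction for 51.3% of all tested genes. It had 35.9, 31.0 and 31.5 CPM in the labelled Mdr2-/- libraries and 16.9, 24.5 and 22.2 CPM in the labelled WT libraries. All 3 labelled Mdr2-/- libraries lay above all 3 labelled WT libraries, which was so for 27.6% of tested genes. The mean was 32.8 ± 2.69 CPM against 21.2 ± 3.90 CPM (SD, n = 3 each), a log2 fold change of 0.63, and 0.93 with total-count scaling. Its spread in the labelled Mdr2-/- group was small, with a coefficient of variation of 8.19%. GENCODE places the antisense gene Gm12523 over 338 exon bases of Sort1 and Gm45346 over 896 exon bases of Bdnf. The strand setting of the counting is not given in the sources used here, so reads from those stretches cannot be told apart.

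Bdnf, the gene of the main TrkB ligand, was measured near the lower end of the tested genes in both groups. It had 26, 26 and 22 counts in the labelled Mdr2-/- libraries and 9, 8 and 20 counts in the labelled WT libraries. On the CPM scale that was 1.29, 1.31 and 1.14 CPM against 0.572, 0.511 and 1.26 CPM, so labelled WT replicate 3 overlapped the other group. The log2 fold change was 0.67, and 1.18 without that library. Ntf5, which encodes the other TrkB ligand neurotrophin-4, had 0, 2 and 3 counts in the labelled Mdr2-/- and 1, 1 and 2 counts in the labelled WT libraries, at or under the floor in each. Counts of both TrkB ligand genes in the labelled Mdr2-/- libraries thus stayed at 26 or fewer per library, where the receptor gene Ntrk2 had 1064 or more. Counts are not scaled by length, and these compare amounts of reads and not of molecules.

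Levels between the 5 genes can be compared only per length, for which the authors' deposited FPKM were used. By deposited FPKM the order in the labelled Mdr2-/- libraries was Sort1 at 4.75 to 5.57, Ntrk2 at 1.99 to 3.82, Ngfr at 1.35 to 2.61, Bdnf at 0.197 to 0.224 and Ntrk3 at 0.0378 to 0.0887. Only the neighbours Ntrk2 and Ngfr overlapped. In the labelled WT libraries it was Sort1 at 2.17 to 3.04 FPKM, Ngfr at 0.823 to 1.58, Bdnf at 0.0708 to 0.177, Ntrk3 at 0.00729 to 0.0413 and Ntrk2 at 0.00385 to 0.0198. There Ntrk3 and Ntrk2 overlapped, and Ntrk2 was last.

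The place of Ntrk2 in that order hung on the length used. Dividing the counts by the deposited FPKM gave 1 length per gene in all 6 libraries, and for Ntrk2 it was 29513 bases. The longest coding transcript of Ntrk2 in GENCODE M21 has 8744 bases and the union of its annotated exons 19292, so the deposited FPKM rest on a length 3.38 times that transcript. For Sort1, Ngfr, Ntrk3 and Bdnf the same quotient was 1.05, 0.989, 1.19 and 1.5. With the longest coding transcript as the length, Ntrk2 stood at 12.9, 6.73 and 9.61 FPKM in the labelled Mdr2-/- libraries, above Sort1 at 5.84, 4.98 and 5.12. Ntrk2 over Sort1 in mean FPKM of that group was then 1.83 in place of 0.570. In the labelled WT libraries that length put Ntrk2 at 0.0669, 0.0130 and 0.0390 FPKM, with a mean above that of Ntrk3 (0.0396 against 0.0222 FPKM), so Ntrk2 was no longer last there, and the 2 genes still overlapped. Differences between the groups within a gene are untouched by this choice.

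**Figure D2:**
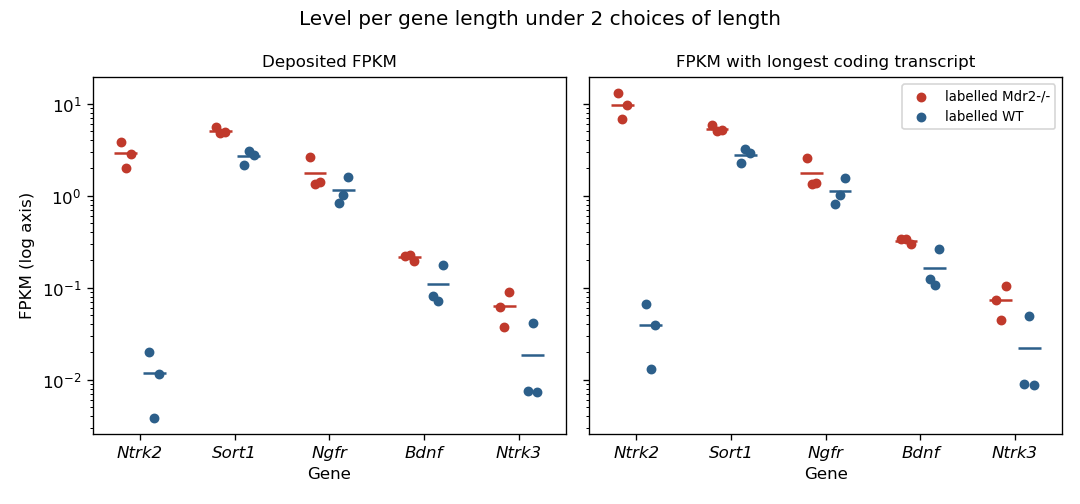
Level per length of the 5 genes on a log axis, from the deposited FPKM (left panel) and with the length of the longest annotated coding transcript (right panel); points are libraries, bars are means, labelled Mdr2-/- in red left of labelled WT in blue. Ntrk2 in the labelled Mdr2-/- libraries moves from below Sort1 to above it, with means of 9.74 and 5.31 FPKM in the right panel.

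Among receptor genes outside the 5, Sorl1 passed the filter and rose in the labelled Mdr2-/- libraries. Sorl1, a sorting receptor gene of the sortilin family, had 199, 159 and 226 counts in the labelled Mdr2-/- and 31, 42 and 42 counts in the labelled WT libraries. It stood at 9.87 ± 1.87 and 2.43 ± 0.402 CPM (SD, n = 3 each), with a log2 fold change of 2.02 (SE 0.20, adjusted p = 6.87e-05 by edgeR). The call held with every scaling, tool, filter and set of 5 libraries tried.

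Other ligand and receptor genes had too few counts to be tested. Summed over 3 libraries, the ligand gene Ntf3 had 32 counts in the labelled Mdr2-/- and 17 in the labelled WT group, and the p75-like gene Nradd 46 and 24. Lingo1, which encodes a p75 partner in neurons, had 14 and 3 counts, and the sortilin family genes Sorcs1, Sorcs2 and Sorcs3 had 1 and 0, 14 and 9, and 6 and 1. Without the filter on low counts the edgeR adjusted p of these genes and Ntf5 ran from 0.159 for Lingo1 to 0.994 for Ntf5.

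Genes related to neurotrophin signalling changed in both directions. The 8 lists were drawn up by known function, but with earlier results of these data known. They hold ligands, receptors, processing enzymes, Trk adaptors, p75 partners, ERK-responsive genes, the GDNF family and kinases related to the Trks. Without the 5 genes they held 99 tested genes, of which 28 were higher (28.3%), 21 lower (21.2%) and 50 did not pass. The median log2 fold change was -0.04, near that of all tested genes, and the shares of 20.9% and 16.3% over all tested genes are the background for these counts. Of the 99, 17 had fewer than 3 labelled WT libraries at the filter's minimum, and 13 of those 17 were among the 28 higher genes, all 13 of which were also called higher in a fit with no filter. Total-count scaling gave 50 higher and 1 lower, so the split of directions depends on the scaling.

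Enzymes that cleave proneurotrophins, and the inhibitors of those enzymes, included 6 higher and 4 lower among 13 tested genes, with a median log2 fold change of 1.15. The metalloproteinase gene Mmp7 stood at 14.2 ± 3.15 CPM in the labelled Mdr2-/- against 0.191 ± 0.230 CPM in the labelled WT libraries (adjusted p = 5.75e-05 by edgeR, log2 fold change 6.17 with SE 0.46, n = 3 each). Plat, the tissue plasminogen activator gene, stood at 7.07 ± 0.241 and 0.762 ± 0.253 CPM (adjusted p = 1.09e-05 by edgeR, log2 fold change 3.20 with SE 0.24). Plg, whose product plasminogen is activated by it and which hepatocytes make, fell to 2920 ± 118 CPM against 4070 ± 282 CPM (log2 fold change -0.48, edgeR adjusted p = 0.00199), and the convertase gene Pcsk7 also fell (-0.47, edgeR adjusted p = 0.000909). The calls of Plg and Pcsk7 were lost with total-count scaling.

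Adaptor and kinase genes downstream of Trk receptors numbered 9 higher and 12 lower among 42, with a median log2 fold change of -0.10. The 12 became 5 without labelled Mdr2-/- replicate 1, 6 without labelled WT replicate 2, 6 with upper-quartile scaling and 1 with total-count scaling. Shc2, which encodes an adaptor of the Shc family expressed in neurons, had the steepest rise among those named, at 4.48 ± 0.994 CPM against 0.148 ± 0.0973 CPM (adjusted p = 2.31e-05 by edgeR, log2 fold change 4.85 with SE 0.40, n = 3 each). The widely expressed signalling genes Map2k2, Rapgef1 and Pik3r1 fell, with log2 fold changes of -0.57, -0.42 and -0.39 (edgeR adjusted p = 0.00134, 0.000908 and 0.00183). The calls of Rapgef1 and Pik3r1 were lost with total-count scaling.

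Partners of p75 and the proteases that cut it had 3 higher and 2 lower genes among 20, with 1 lower without labelled Mdr2-/- replicate 1 or 2 or labelled WT replicate 2. The higher ones were Bex1 and Bex3, small adaptor genes of which Bex3 encodes a p75-binding protein, and Arhgdia, which encodes a GDP dissociation inhibitor of small GTPases (edgeR adjusted p = 0.000951, 0.00458 and 0.0167). Bex1 was at 52 counts over the labelled Mdr2-/- and 2 over the labelled WT group. Like Mmp7, Shc2, Egr2 and Spry2, it reached the filter's minimum in 3 labelled Mdr2-/- and 0 labelled WT libraries, and all 5 calls held with no filter. Bex3 had a log2 fold change of 1.66 and Arhgdia of 0.32, and the call of Arhgdia was lost in 3 of 13 alternatives. Aph1a, a gamma-secretase subunit gene, fell by 0.28 on the log2 scale (edgeR adjusted p = 0.0141) and turned to 0.02 with total-count scaling.

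Genes that respond to ERK signalling, a route that Trk and many other receptors share, held 4 higher and 2 lower among 16, with a median log2 fold change of -0.04. There were 2 higher without labelled WT replicate 2, and 0 lower without labelled Mdr2-/- replicate 1 or labelled WT replicate 1 and 1 without labelled WT replicate 3. Egr2, an immediate early transcription factor gene, was at 1.16 ± 0.329 CPM in the labelled Mdr2-/- and 0.0849 ± 0.0971 CPM in the labelled WT libraries (adjusted p = 0.00184 by edgeR, log2 fold change 3.67 with SE 0.65, n = 3 each). The feedback inhibitor gene Spry1 rose by 0.74 on the log2 scale (edgeR adjusted p = 0.00628). Dusp5 and Spry2 passed at 1.14 and 1.32 (edgeR adjusted p = 0.0276 and 0.0280) and lost their calls in 5 and 7 of 13 alternatives.

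**Figure D3:**
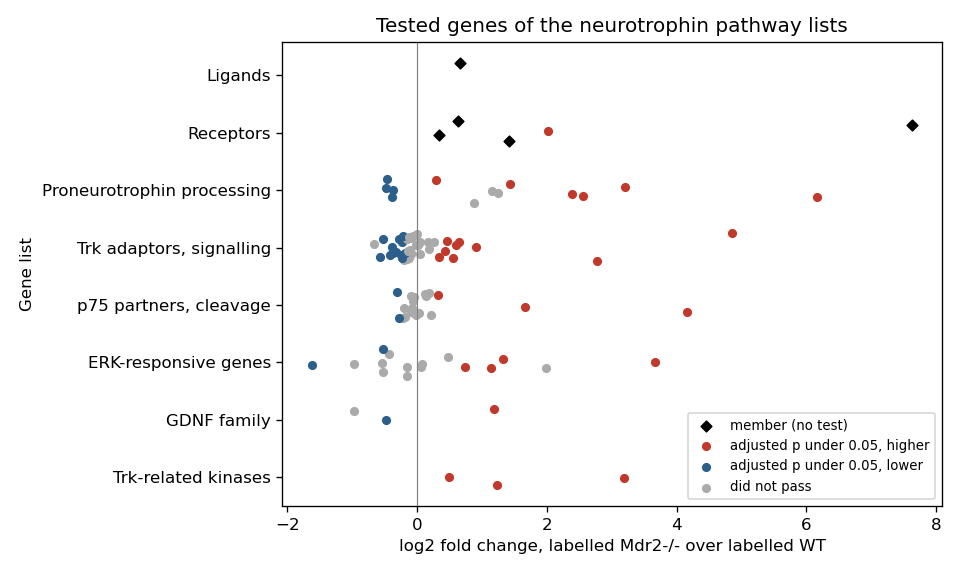
Log2 fold change, labelled Mdr2-/- over labelled WT, of tested genes in the 8 lists, except that of the ligand list only Bdnf is drawn. Red and blue points passed an adjusted p of 0.05 as higher and lower, and grey points did not pass. Black diamonds are the 5 untested genes, with Ntrk2 at 7.63. Vertical scatter within a list carries no meaning; both red and blue points occur in the adaptor, processing, p75 and ERK lists, and the Trk-related kinases are all red.

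The genes whose profile lay closest to that of Ntrk2 shared its on-off pattern between the groups, which the choice of measure favours. Likeness was the root mean square difference of log2(CPM + 0.5) over the 6 libraries after centring each gene on its own mean, and its median over tested genes was 3.24. Cib3, a calcium-binding protein gene, came closest at 0.657. It had 86.4, 73.1 and 46.8 CPM in the labelled Mdr2-/- and 1.21, 1.15 and 0.442 CPM in the labelled WT libraries. Its highest labelled Mdr2-/- library was replicate 1, as for Ntrk2, and its lowest was replicate 3. Dmbt1, a scavenger receptor gene of epithelia, followed at 0.855, and Osbpl3, a sterol-binding protein gene, at 1.03. Osbpl3 had 31.6, 19.3 and 22.1 CPM in the labelled Mdr2-/- libraries, the same order of replicates as Ntrk2, and 0.572, 0.511 and 0.757 CPM in the labelled WT libraries. The others were Mmp7 (1.18), the neutral sphingomyelinase gene Smpd3 (1.31), Ifi27l2b (1.33), the Rag GTPase gene Rragd (1.34) and D17H6S56E-5 (1.36). Between 6 and 8 of these 8 stayed among the 8 closest with total-count scaling or without any 1 library. A wide spread in the labelled Mdr2-/- group was not particular to Ntrk2. In CPM (SD, n = 3), Cib3 had 68.8 ± 20.1, D17H6S56E-5 36.5 ± 15.5, Osbpl3 24.3 ± 6.45 and Smpd3 23.6 ± 6.30. Rragd had 37.5 ± 8.31, Dmbt1 28.1 ± 5.91, Ifi27l2b 20.1 ± 3.92 and Mmp7 14.2 ± 3.15.

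**Figure D4:**
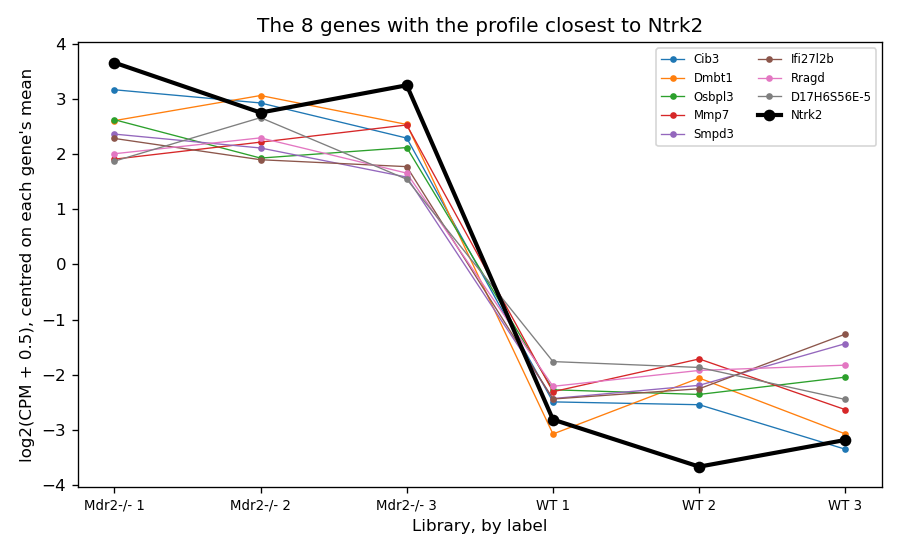
Centred log2(CPM + 0.5) of Ntrk2 (black) and the 8 genes with the smallest root mean square difference from it, in the 3 labelled Mdr2-/- and 3 labelled WT libraries; lines only link the points of a gene. All 9 are above their own mean in the labelled Mdr2-/- libraries and below it in the labelled WT libraries.

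Genes beside Ntrk2 on chromosome 13 did not pass the test. Ntrk2 spans chr13:58806472-59133970 (RefSeq, GRCm38.p6). These neighbours were taken by position after the Ntrk2 values were known. Agtpbp1, 316 kb after it, had 14.4 ± 0.883 CPM in the labelled Mdr2-/- and 16.4 ± 1.53 CPM in the labelled WT libraries (SD, n = 3 each), with no overlap and a log2 fold change of -0.19 (adjusted p = 0.180 by edgeR). Naa35, 451 kb after it, had a log2 fold change of 0.14 (edgeR adjusted p = 0.248) and passed with total-count scaling alone, and Rmi1, 395 kb before it, of -0.02 (edgeR adjusted p = 0.921). The nearest, the nucleoside carrier gene Slc28a3 at 196 kb before it, had 2, 2 and 10 counts in the labelled Mdr2-/- and 0, 2 and 0 counts in the labelled WT libraries and was not tested.

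Markers of several cell types moved with the groups, and their part in the Ntrk2 difference was not tested. The shares of 20.9% higher and 16.3% lower over all tested genes are the background for the counts of each list. Bile duct cell markers were higher for all 17 tested of 18 genes with a row, with a summed level of 579 to 612 CPM in the labelled Mdr2-/- and 102 to 136 CPM in the labelled WT libraries. By replicate the sums were 612, 579 and 596 CPM in the labelled Mdr2-/- libraries, in the same order as Ntrk2 but within a far narrower range. The keratin gene Krt19 stood at 10.6 ± 0.748 and 0.910 ± 0.204 CPM, and the surface antigen gene Cd24a at 23.6 ± 2.45 and 1.52 ± 0.270 CPM (SD, n = 3 each). Cldn4 and Cftr were at 0 in at least 1 library. Portal fibroblast markers were higher for 9 of 9 tested, with sums of 76.9 to 95.4 CPM and 17.5 to 19.5 CPM, and the elastin gene Eln stood at 19.1 ± 1.20 and 3.47 ± 0.0240 CPM (SD, n = 3 each). Gli1, Pi16 and Clec3b were under 1 CPM in both groups.

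Of the 12 stellate cell markers 4 were higher and 0 lower, and their sums of 376 to 445 CPM in the labelled Mdr2-/- and 277 to 420 CPM in the labelled WT libraries overlapped, as did the levels of Ngfr. Pdgfrb and Rgs5 led them, with log2 fold changes of 1.53 and 1.16. Without labelled WT replicate 3 the 4 became 7. Smooth muscle markers were higher for 3 of 6, with overlapping sums of 25.8 to 36.3 and 12.3 to 30.5 CPM. The 3 became 0 without labelled WT replicate 1 and 1 without labelled Mdr2-/- replicate 3. Macrophage markers were higher for 7 of 11, with sums of 306 to 358 and 170 to 300 CPM, and Gpnmb had a log2 fold change of 4.52. Gpnmb reached the filter's minimum in 3 labelled Mdr2-/- and 0 labelled WT libraries, and its call held with no filter.

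Nerve-associated markers were sparse. Of the 12 Schwann cell and glia markers 9 were under 1 CPM in both groups, and Sox10, S100b, Foxd3, Gfap and Gfra3 were at 0 in at least 1 library. Their summed level was 6.80 to 9.72 CPM in the labelled Mdr2-/- and 1.53 to 4.10 CPM in the labelled WT libraries. Scn7a and Ncam1, 2 of the 4 tested, were called higher (log2 fold changes 3.09 and 1.99, edgeR adjusted p = 0.000463 and 0.0194). They reached the filter's minimum in 3 labelled Mdr2-/- libraries, and in 0 and 1 labelled WT libraries, a route that favours higher genes. The call of Scn7a held in all 13 alternatives, the fit with no filter among them, and that of Ncam1 was lost in 4. The 7 neuron markers with a row summed to 0.248 to 0.727 CPM and 0.0639 to 0.254 CPM, and 0 of them passed the low-count filter. Platelet markers, listed because platelets carry BDNF protein, summed to 2.47 to 3.87 and 2.99 to 3.96 CPM. Of these 6 markers 5 were under 1 CPM in both groups, and 3 were at 0 in at least 1 library. The 1 tested, Itga2b, was called lower (log2 fold change -0.63, edgeR adjusted p = 0.0491), a call lost in 11 of 13 alternatives. Lymphocyte markers summed to 6.80 to 8.33 CPM in the labelled Mdr2-/- and 9.22 to 13 CPM in the labelled WT libraries. Of the 4 tested genes 1 was lower and 0 higher. That gene, Zap70, alone stood at 1.82 ± 0.0388 CPM against 6.63 ± 1.58 CPM (SD, n = 3 each). The lower sums rest on it, and the rest of the list did not sum lower in the labelled Mdr2-/- libraries. The median log2 fold change of the 4 was 0.22, and 8 of the 10 markers were under 1 CPM in both groups. Of 12 hepatocyte markers 9 were lower and 0 higher, with sums of 84800 to 86500 CPM and 137000 to 145000 CPM, and the endothelial list had 2 higher (18.2%) and 3 lower (27.3%) of 11. The 2 higher became 0 without labelled Mdr2-/- replicate 1 or labelled WT replicate 2, and 1 without labelled Mdr2-/- replicate 3 or labelled WT replicate 1.

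**Figure D5:**
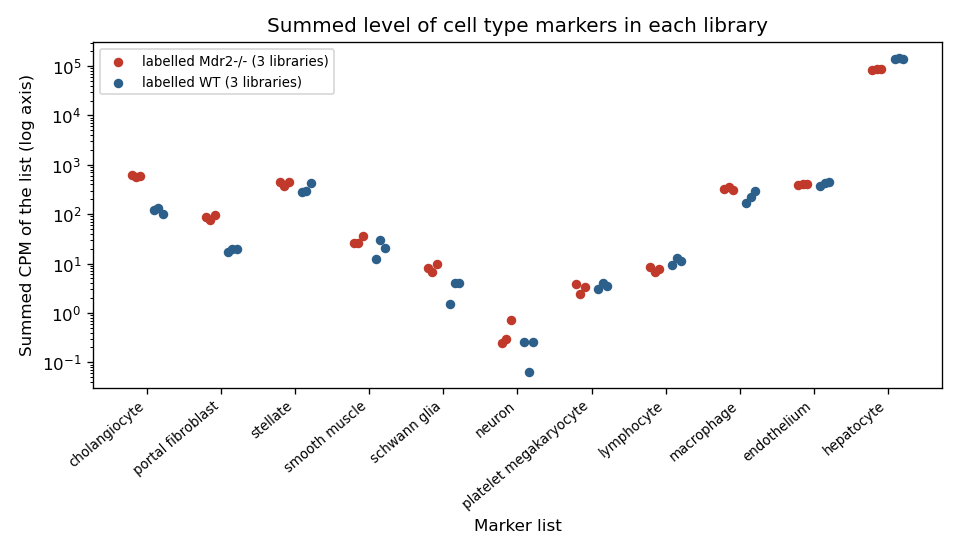
Summed CPM of each cell type marker list on a log axis in the 3 labelled Mdr2-/- (red, left) and 3 labelled WT (blue) libraries. Bile duct and portal fibroblast sums lie apart between the groups, at 579 to 612 against 102 to 136 CPM for bile duct markers, and neuron markers stay under 1 CPM. The Schwann cell, macrophage, lymphocyte and hepatocyte sums also do not overlap. In the lymphocyte list Zap70 alone has means of 1.82 and 6.63 CPM.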

How the data were processed

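RNA of mouse liver was measured in 3 libraries labelled Mdr2-/- and 3 labelled WT. The authors deposited raw counts, as whole numbers for each gene symbol, and FPKM of those genes. The deposited FPKM gave 1 length per gene within 0.1% for 11443 of 11443 genes with at least 10 counts in every library, so they restate the counts. The tools listed, per the submitters' processing notes, are Bowtie2, Cufflinks, DESeq, HISAT2, HTSeq, SAMtools, StringTie and Trimmomatic, and the build is mm10. Which tool did what, in which version, with which annotation and strand, is not given in the sources used here. Column letters M and N were read as Mdr2-/- and WT, N by elimination, and 0 columns were left without a sample.

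Counts were tested with edgeR 4.0.16 (R 4.3.3): filterByExpr (minimum count 10, minimum total count 15), TMM factors, a robust quasi-likelihood fit with group as the only term over all 6 libraries, and Benjamini-Hochberg adjustment over 12612 genes at 0.05. Each SE is the size of the log2 fold change over the root of its F statistic. The alternatives tried were DESeq2 1.42.0, limma-voom (limma 3.58.1), scaling by RLE, upper quartile or total count, no filter, a replicate block, and leaving out each library. The 5 genes and all lists were chosen with earlier results of these data known. Genes were named by rule: the 5, Abcb4, ligand and receptor genes, the 4 genes with the smallest p of each other list (3 for marker lists), and the 8 closest to Ntrk2. Totals of 17100393 to 18124467 counts set the precision. No label names a batch. Some genes of the lists are not reported here by name. Transcripts came from GENCODE M21 and start-site windows from RefSeq GRCm38.p6, both of the build named for the files.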

Additional observations from a re-analysis of the deposited data

How the results depend on the processing

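The log2 fold change of Ntrk2 kept its direction and stayed between 7.22 and 8.19 in each alternative, those of Ntrk3, Bdnf and Sort1 kept theirs, and that of Ngfr did so in all but 1. With total-count scaling Sort1 moved to 0.93, the pathway genes called became 50 higher and 1 lower, and all genes called 5943 higher and 330 lower, against 2634 and 2051. With upper-quartile scaling 13 pathway genes were lower, in place of 21. Leaving out 1 library gave 19 to 25 higher and 10 to 19 lower pathway genes, the fewest lower without labelled Mdr2-/- replicate 1, and 2092 to 2603 higher and 1449 to 2006 lower genes in all. It also gave a range of 0.43 to 1.18 for Bdnf, 1.03 to 2.74 for Ntrk3, -0.03 to 0.65 for Ngfr and 0.48 to 0.74 for Sort1. The call of Abcb4 held throughout. Of 62 other named tested genes, 39 kept direction and call in all 13 alternatives. The sign turned with total-count scaling for Aph1a (0.02), Agtpbp1 (0.10) and Rmi1 (0.27), and for Rmi1, which did not pass, also with upper-quartile scaling (0.03) and without labelled Mdr2-/- replicate 2 or labelled WT replicate 1 or 2 (-0.18 to 0.05 over the 6 left-out libraries). The cause was not tested. Replicate numbers did not pair the libraries: deviations from the group means of same-numbered libraries correlated at 0.103, 0.058 and -0.073. With the replicate block 28 pathway genes were higher and 20 lower, and 2576 and 1992 genes in all. Counts of 2 to 10 per labelled WT library limit the size of the Ntrk2 ratio. The length comparison and the check of the 8 closest genes were added after the data were seen.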

Other observations

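Kinase receptors of the families nearest to the Trks were called higher in the labelled Mdr2-/- libraries for 3 of 3 tested genes, of 5 listed. Over all tested genes the share called higher was 20.9%, and 3 genes are few to set beside it. The 3 became 2 with DESeq2, no filter, the replicate block, or without any library but labelled WT replicate 3. The collagen receptor gene Ddr1 stood at 17.7 ± 0.972 CPM in the labelled Mdr2-/- and 1.93 ± 0.554 CPM in the labelled WT libraries (SD, n = 3 each; adjusted p = 2.11e-06 by edgeR, log2 fold change 3.19, SE 0.18). Ddr2, a second collagen receptor gene, stood at 11.6 ± 2.09 and 4.89 ± 1.43 CPM (adjusted p = 0.00227 by edgeR, log2 fold change 1.24 with SE 0.22). Ror1, a Wnt receptor gene, passed with a log2 fold change of 0.49 (edgeR adjusted p = 0.0440) and lost its call in 8 of 13 alternatives.

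The GDNF family, another group of neurotrophic factors and receptors, had 3 tested genes. Gfra1, a GDNF co-receptor gene, was among the more abundant genes named here, at 315 ± 56.5 CPM in the labelled Mdr2-/- and 438 ± 68.9 CPM in the labelled WT libraries (SD, n = 3 each; adjusted p = 0.0471 by edgeR, log2 fold change -0.47). Its groups overlapped and its call was lost in 8 of 13 alternatives. Gfra2, the neurturin co-receptor gene, was higher (log2 fold change 1.19, edgeR adjusted p = 0.0206), a call lost in 5 of 13, and the ligand gene Nrtn did not pass (-0.97, edgeR adjusted p = 0.140).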
